A study of Mus musculus with 53 samples.

Results

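This report describes the 10 genes for eicosanoid synthesis enzymes listed by symbol among 49568 genes in RNA-seq of mouse sciatic nerve (SCN). The members were taken by name, with no measured value used: Ptgs1, Ptgs2, Ptges, Ptgds, Hpgds, Alox5, Alox5ap, Lta4h, Ltc4s and Alox15. All 10 had a value in each of the 53 samples. A mean log2 value of 3.32 was required in a comparison, which 9 members met in all 14 comparisons and Alox15 in 6 of them.

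The mice were male C57BL/6J. SD mice ate a standard diet and HFD mice a high-fat diet, which the study used as a model of prediabetes. HFD-STZ mice ate the high-fat diet and were given streptozotocin (STZ), a toxin of insulin-producing beta cells, as a model of type 2 diabetes. HFD-DR and HFD-STZ-DR mice underwent dietary reversal (DR), a return from the high-fat to the standard diet from 16 to 24 weeks of age, so the reversal groups share their earlier diet, and their STZ where given, with the groups they are compared with. The 16-week groups held 7 HFD samples, with 5 in each of SD and HFD-STZ. The 24-week groups held 6 HFD-STZ-DR samples, 7 in each of HFD-DR and HFD, and 8 in each of HFD-STZ and SD. The nerve was sequenced whole, so the values are of a mixture of cell types, and the labels keep HFD as the diet of the reversal groups.

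Eicosanoids are signalling lipids made from arachidonic acid after it is released from membranes. The cyclooxygenases, encoded by Ptgs1 and Ptgs2, make prostaglandin H2, which terminal synthases convert to prostaglandin E2 (Ptges), prostaglandin D2 (Ptgds and Hpgds) and others. In the other branch 5-lipoxygenase (Alox5), with the membrane protein that presents arachidonic acid to it (Alox5ap), makes leukotriene A4, from which Lta4h makes leukotriene B4 and Ltc4s makes leukotriene C4. Prostaglandin E2 is known to sensitize nociceptors, and leukotriene B4 attracts neutrophils.

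The values are log2 expression as deposited. A difference of 1 between groups is a doubling if they are plain log2 abundances, which the folds given here assume. Schwann cell markers had the highest group means of the lists checked, with marker means between 16.64 and 17.55 over the 53 samples. The other cell types of a nerve with its coverings were also measured: adipocyte, fibroblast, perineurial, macrophage and skeletal muscle markers varied between samples of the same group, and none of the 6 adipocyte markers was at 0 in any sample (Plin1, of the fat droplet coat, had a lowest value of 6.44). Skeletal muscle markers averaged from 7.52 in HFD-STZ mice at 16 weeks to 12.32 in HFD-DR mice. Fewer cells of a type and less RNA per cell cannot be told apart in such samples. One library stood apart: HFD-STZ 24 weeks replicate 7, with the lowest median correlation with the others (0.941), held very high values of sensory neuron genes, chosen here after their values were seen, such as Tac1 at 60.16 against 7.14 as the highest of the others and Calca at 57.95 against 9.52. Of 25 genes with any value above 22, 23 had their highest value in that library, and these 25 were left out of the tests. Several member differences that include this library are given with and without it. Marker differences, covariate fits and the other pathway genes are given with it only.

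**Figure D1:**
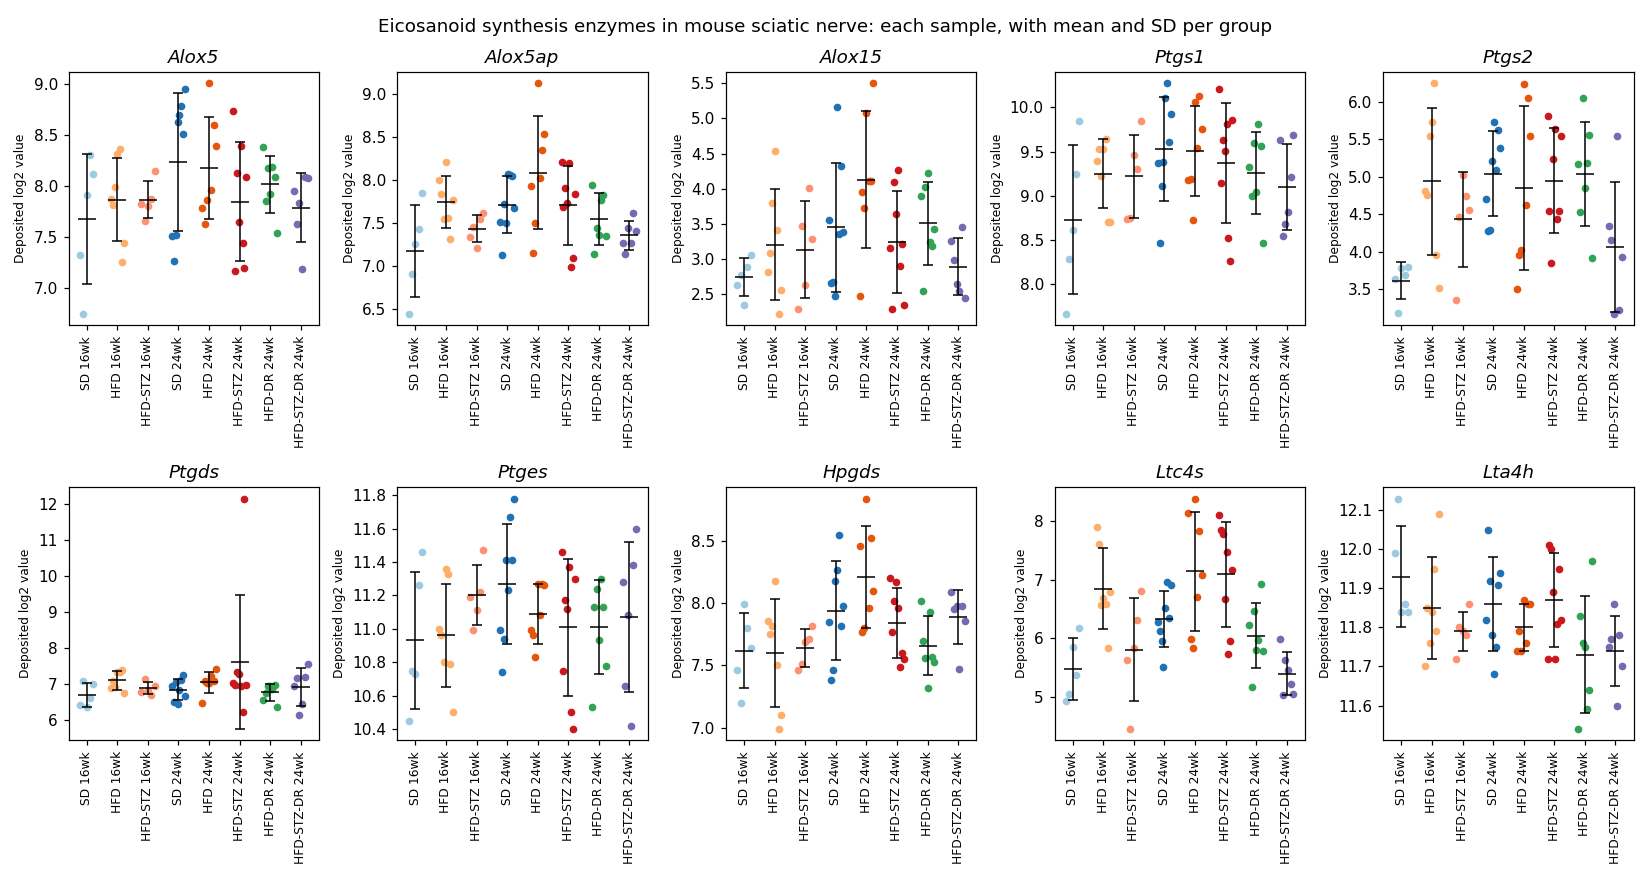
Deposited log2 values of the 10 enzyme genes in each sample, 1 panel a gene, with the mean and SD of each of the 8 groups as bars. Ltc4s and Ptgs2 ranged the most between groups, and 1 Ptgds sample of HFD-STZ at 24 weeks lay at 12.14.

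Compared per kilobase of annotated exon, on the log2 scale and over all 53 samples, the medians were highest for Lta4h (9.21) and Ptges (9.15), followed by Ptgs1 (7.41), Alox5ap (7.04), Ptgds (6.24), Ltc4s (6.21), Alox5 (5.88) and Hpgds (5.13), and lowest for Ptgs2 (2.42) and Alox15 (1.94). Within each gene, neighbours in the order of the 8 group means were close: in all 70 pairs the gap was within their pooled SD. Sorting makes such gaps small, so they do not bear on groups farther apart in the order. The range of group means was narrowest for Lta4h (0.2) and Ptges (0.34) and widest for Ltc4s (1.74) and Ptgs2 (1.43).

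No member passed an adjusted p of 0.05 in any of the 14 comparisons or in the 3 interactions. Few genes of any kind did: 0.121% of those tested in HFD against SD at 24 weeks, 0.084% in HFD-STZ-DR against HFD-STZ, 0.0654% in HFD at 24 against 16 weeks, 0.0336% in HFD-STZ against SD at 24 weeks, 0.0108% in HFD-DR against HFD, 0.00557% in HFD against SD at 16 weeks and 0% in the other comparisons and interactions. Of 132 member tests, 26 had an unadjusted p under 0.05 by limma, 14 of them higher and 12 lower in the first-named group. Over the 14 comparisons, between 3.58% and 12.5% of all genes tested had one. The member tests share samples and control groups. Of the 26, 18 also passed an exact permutation test unadjusted. The 26 include 2 for Alox15, which entered those fits only through the group where it was high. The differences that follow are given with both tests, and none of them passed the adjusted threshold in the fit of the groups compared.

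The upstream bases of Ltc4s and Ptgs2 are shown because these 2 members differed most between groups. The sequences come from RefSeq on GRCm38.p6, matched by symbol for 8 of the 10 members, and run up to the start of the gene, without transcribed bases of these genes.
Ptgs2, chr1:150099781-150100030, plus strand: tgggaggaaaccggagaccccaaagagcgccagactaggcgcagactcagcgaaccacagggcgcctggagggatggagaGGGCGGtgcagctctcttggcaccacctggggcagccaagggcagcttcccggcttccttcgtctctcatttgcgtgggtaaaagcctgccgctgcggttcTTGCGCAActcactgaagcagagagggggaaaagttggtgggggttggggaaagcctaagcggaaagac
Ltc4s, chr11:50238617-50238782, minus strand: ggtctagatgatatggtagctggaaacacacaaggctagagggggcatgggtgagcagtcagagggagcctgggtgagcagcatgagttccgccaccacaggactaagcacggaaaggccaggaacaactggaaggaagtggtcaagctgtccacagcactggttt
Capitals mark the motifs found on either strand. Ptgs2 held GGGCGG, the GC box, and TTGCGCAA, a C/EBP palindrome that was searched for after the sequence was seen. Ltc4s held neither, and neither sequence held the TATA box (TATAAA), the CCAAT box, the E-box (CACGTG) or the nuclear receptor motif (AGGTCA). Of 32851 promoters of 250 bases in the table, 32.7% held the GC box, 33.8% the CCAAT box, 14% the nuclear receptor motif, 12.4% the TATA box, 6.02% the E-box and 0.164% the C/EBP palindrome. The Ltc4s window is shorter, at 166 bases, and an exon of the antisense gene Ptgs2os lies in the Ptgs2 window. A match is a description of the letters only.

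Ltc4s (GRCm38 chr11:50236461-50238616, minus strand, 4 exon blocks, protein coding), the enzyme that conjugates leukotriene A4 with glutathione, had the widest spread between groups. The group means ran HFD 24 weeks 7.14, HFD-STZ 24 weeks 7.09, HFD 16 weeks 6.85, SD 24 weeks 6.33, HFD-DR 6.05, HFD-STZ 16 weeks 5.81, SD 16 weeks 5.48 and HFD-STZ-DR 5.4. At 16 weeks the 5 SD samples had 4.93, 5.05, 5.85, 5.37 and 6.18, and the 7 HFD samples ran from 5.84 through a median of 6.69 to 7.89. Of the 7 HFD samples, 6 were above every SD sample, so that the groups overlapped in the lowest HFD sample only. The difference was 1.38 ± 0.33 (SE), or 2.6-fold (adjusted p = 0.292, exact permutation p = 0.00758), and it was higher in 5 of 5 runs of library numbers that held both groups. HFD-STZ at 16 weeks, with 4.46, 5.63, 5.83, 6.31 and 6.81, was lower than HFD by a difference of -1.04 ± 0.39 (adjusted p = 0.987, exact permutation p = 0.0429). At 24 weeks the SD samples ran from 5.52 through 6.32 to 6.96, HFD from 5.83 through 7.08 to 8.38 and HFD-STZ from 5.73 through 7.32 to 8.1. In HFD, 4 of 7 samples were above every SD sample, and in HFD-STZ 5 of 8 were. The differences from SD, which these 2 comparisons share, were 0.81 ± 0.37 in HFD (adjusted p = 0.536, exact permutation p = 0.0693) and 0.76 ± 0.33 in HFD-STZ (adjusted p = 0.816, exact permutation p = 0.0521). Without HFD-STZ replicate 7 the second was 0.93 ± 0.31 (adjusted p = 0.535).

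Mean Ltc4s was lower in both reversal groups than in the mice that stayed on the high-fat diet, without passing the adjusted threshold in the fit of each pair of groups. HFD-DR samples ran from 5.17 through 5.97 to 6.93 and HFD-STZ-DR samples from 5.03 through 5.35 to 5.99. In HFD-STZ-DR, 5 of 6 samples lay below every HFD-STZ sample, while in HFD-DR 3 of 7 lay below every HFD sample. The difference between HFD-STZ-DR and HFD-STZ was -1.69 ± 0.36, with a 95% interval from -2.46 to -0.93, or 3.23-fold lower (adjusted p = 0.102, exact permutation p = 0.00233), and it was lower in 6 of 6 runs of library numbers. It passed the adjusted threshold when all 8 groups were in 1 fit (adjusted p = 0.0274), but not when the run of library numbers was added to that fit as a block (difference -1.69, adjusted p = 0.0525). It also passed without HFD-STZ replicate 6 (difference -1.89, adjusted p = 0.0109) and without replicate 7, the library with neuron transcripts (difference -1.85, adjusted p = 0.0333). Without replicate 7, 117 of all genes passed in this comparison, against 15 with it. The difference between HFD-DR and HFD was -1.09 ± 0.40 (adjusted p = 0.642, exact permutation p = 0.0321), lower in 4 of 6 runs of library numbers. Against SD, HFD-STZ-DR had -0.93 ± 0.23 (adjusted p = 0.313, exact permutation p = 0.00366), and against HFD-DR it had -0.65 ± 0.25 (adjusted p = 0.999, exact permutation p = 0.0367). The mean of Ltc4s was higher in older SD mice, by 0.85 ± 0.27 at 24 against 16 weeks (adjusted p = 0.399, exact permutation p = 0.0148), with 5 of 8 older samples above every younger one. In HFD-STZ the age difference was 1.28 ± 0.46 (adjusted p = 0.309, exact permutation p = 0.0287), again with 5 of 8 above every younger sample, and 1.44 ± 0.44 without replicate 7 (adjusted p = 0.187). The adipocyte marker mean was higher at 24 weeks too, by 1.71 in SD (exact permutation p = 0.0396) and 1.32 in HFD-STZ (exact permutation p = 0.073), with all 6 markers higher in both, and with it as a covariate both Ltc4s age differences were 0.31 (adjusted p = 1 and 0.347).

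Adipocyte markers varied with Ltc4s within groups. Over the 53 samples, with group means taken off, Ltc4s had r = 0.86 and rho = 0.9 with the mean of the 6 adipocyte markers (both permutation p = 1e-05, the smallest that 100000 resamples give; adjusted over 100 correlations 5e-05 and 4.8e-05), r = 0.86 without the 2 samples farthest from the median, and r = 0.87 with library-number runs taken off too. The adipocyte marker mean was 11.1 in HFD-STZ-DR, between 9.07 and 12.07, and 12.99 in HFD-STZ, between 11.33 and 13.9, a difference of -1.89 (exact permutation p = 0.00799) with all 6 markers lower. At 16 weeks it was 12.71 in HFD and 10.89 in SD, a difference of 1.81 (exact permutation p = 0.0328) with all 6 higher. The 24-week adipocyte differences from SD were 0.19 in HFD (exact permutation p = 0.716) and 0.39 in HFD-STZ (exact permutation p = 0.427). The adipocyte mean differed by -0.68 between HFD-DR and HFD (exact permutation p = 0.263). At 16 weeks it differed by -1.03 between HFD-STZ and HFD (exact permutation p = 0.104). HFD-STZ-DR differed in it by -1.5 from SD (exact permutation p = 0.0103) and -1.01 from HFD-DR (exact permutation p = 0.115). With the adipocyte mean as a covariate, the Ltc4s difference between HFD-STZ-DR and HFD-STZ was -0.60 (adjusted p = 0.414), between HFD-DR and HFD -0.61 (adjusted p = 0.306), between HFD and SD at 16 weeks 0.72 (adjusted p = 0.527) and between HFD and SD at 24 weeks 0.67 (adjusted p = 0.0461), the last past the threshold, where 176 genes were called. The other Ltc4s differences were nearer 0 with this covariate: -0.31 for HFD-STZ against HFD at 16 weeks (adjusted p = 0.862), 0.50 for HFD-STZ against SD at 24 weeks (adjusted p = 0.33), and, for HFD-STZ-DR, -0.37 from SD and -0.27 from HFD-DR (adjusted p = 1 for each). Ltc4s also had r = 0.7 with the endothelial, 0.68 with the macrophage and -0.61 with the Schwann cell marker mean. The 3 genes most like Ltc4s in the 53 samples, with group means off, were Mmd (r = 0.92), Dram1 (r = 0.92) and Acaa1b (r = 0.91). The antisense gene Gm26542 overlaps Ltc4s exons. Reads of the 2 genes there cannot be told apart in a non-stranded library, which the methods describe. Gm26542 was listed at 2.25 to 3.51, which does not show how reads in the overlap were counted.

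**Figure D2:**
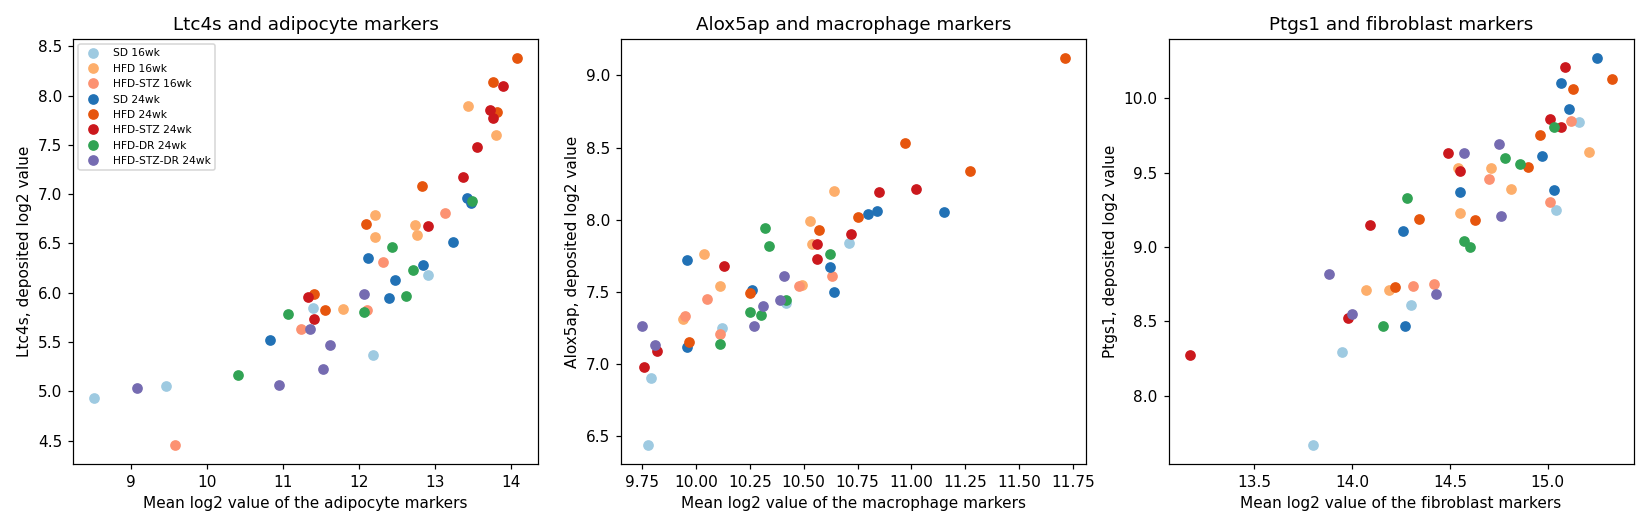
Deposited log2 values of Ltc4s, Alox5ap and Ptgs1 in each sample (y axis) against the mean log2 value of the adipocyte, macrophage and fibroblast markers (x axis), coloured by group. The HFD-STZ-DR samples lie at the lower left of the Ltc4s panel, with adipocyte marker means of 9.07 to 12.07.

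Of the cyclooxygenases, Ptgs2 (GRCm38 chr1:150100031-150108227, plus strand, 11 exon blocks, protein coding), the inducible form, was among the lowest members and varied most after Ltc4s. At 16 weeks the SD samples had 3.63, 3.18, 3.78, 3.69 and 3.8, while HFD samples ran from 3.51 through 4.81 to 6.25 and the HFD-STZ samples had 3.35, 4.46, 5.02, 4.75 and 4.56. The SD samples sat within a narrow band near the limit of 3.32 on low values, with the lowest (3.18) under it. A filter on each sample left Ptgs2 out of the comparisons with these SD samples. Of the others, 6 of 7 HFD and 4 of 5 HFD-STZ samples were above all SD samples. The difference from SD, the control shared by both, was 1.33 ± 0.41 in HFD (adjusted p = 0.453, exact permutation p = 0.0253) and 0.81 ± 0.29 in HFD-STZ (adjusted p = 0.576, exact permutation p = 0.0397). At 24 weeks the SD samples were higher, from 4.27 through 5.15 to 5.74, so that all 8 lay above all 5 at 16 weeks, with no overlap. That difference was 1.43 ± 0.26, or 2.69-fold (adjusted p = 0.223, exact permutation p = 0.00155), higher in 5 of 5 runs of library numbers, and 1.29 with the adipocyte mean as covariate. The age change in HFD minus that in SD was -1.52 ± 0.61 (adjusted p = 1).

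At 24 weeks the Ptgs2 means of HFD (4.85), HFD-STZ (4.95) and HFD-DR (5.04) were close to that of SD (5.04), and HFD-STZ-DR was at 4.06, with samples from 3.17 through 4.05 to 5.55. The HFD-STZ-DR samples spread widely, and 4 of 6 lay below every SD sample. The differences of HFD-STZ-DR were -0.98 ± 0.36 from SD (adjusted p = 0.422, exact permutation p = 0.028), -0.89 ± 0.39 from HFD-STZ (adjusted p = 0.719, exact permutation p = 0.0596) and -0.98 ± 0.40 from HFD-DR (adjusted p = 0.999, exact permutation p = 0.0513). Without HFD-STZ replicate 7 the second was -0.95 ± 0.41 (adjusted p = 0.539). Genes whose pattern was among the most like that of Ptgs2 over the samples were Nox4 (r = 0.72) and Vsig4 (r = 0.69).

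Ptgs1 (GRCm38 chr2:36230426-36252272, plus strand, 11 exon blocks), the constitutive form, was at a median of 9.37 and had one difference to describe. SD samples at 24 weeks, from 8.47 through 9.49 to 10.27, were above those at 16 weeks, from 7.67 through 8.61 to 9.84, by 0.80 ± 0.35 (adjusted p = 0.464, exact permutation p = 0.0692), and 0.10 with the adipocyte covariate (adjusted p = 1). The groups overlapped, and 3 of 8 of the older samples were above every younger one. Ptgs1 tracked the fibroblast marker mean, with r = 0.9 and rho = 0.91 (both permutation p = 1e-05, the smallest that the resamples give). This r was 0.89 without the 2 farthest samples and 0.9 with runs taken off. Ptgs1 also had r = 0.86 with the perineurial, 0.83 with the macrophage, 0.75 with the adipocyte and -0.66 with the Schwann cell marker mean. Its closest genes were Gas1 (r = 0.95), Igfbp4 (r = 0.94) and C1qtnf1 (r = 0.94).

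Among the terminal prostaglandin synthases, Ptges (GRCm38 chr2:30889471-30929863, minus strand, 6 exon blocks), the inducible microsomal prostaglandin E synthase, was the most even between groups after Lta4h, with group means from 10.93 to 11.27, no unadjusted p under 0.05 and differences between -0.27 and 0.34. Over the samples it was like the perineurial markers (r = 0.9, rho = 0.92) and the fibroblast markers (r = 0.89, rho = 0.91). Its nearest genes were Scarf2, Gsn and Colec12 (r = 0.92 each).

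Hpgds (GRCm38 chr6:65117293-65144908, minus strand, 6 exon blocks), the haematopoietic prostaglandin D synthase, was highest in HFD at 24 weeks. HFD samples at 24 weeks ran from 7.77 through 8.1 to 8.84 and HFD-DR samples from 7.32 through 7.57 to 8.02. Of the 7 HFD-DR samples, 5 lay below every HFD sample. The difference was -0.55 ± 0.17 (adjusted p = 0.578, exact permutation p = 0.00932), lower in 6 of 6 runs of library numbers and -0.41 with the adipocyte covariate (adjusted p = 0.483). HFD at 24 weeks was above HFD at 16 weeks, which ran from 6.99 through 7.75 to 8.18, by 0.61 ± 0.21 (adjusted p = 0.742, exact permutation p = 0.0204). The reversal effect in HFD-STZ minus that in HFD was 0.59 ± 0.23 (adjusted p = 1). Mast cell markers differed in these comparisons too: their mean was lower in HFD-DR than in HFD by a difference of -0.81 (exact permutation p = 0.00583) with all 8 lower, and higher in HFD at 24 than at 16 weeks by 0.94 (exact permutation p = 0.00233) with all 8 higher. Macrophage markers differed in the same directions, by -0.45 (exact permutation p = 0.0804) with all 8 lower and by 0.46 (exact permutation p = 0.0897) with all 8 higher. In HFD-STZ against SD at 24 weeks the mast cell mean differed by -0.61 (exact permutation p = 0.0162) and Hpgds by -0.09. In HFD-STZ-DR against SD they differed by -0.73 (exact permutation p = 0.0113) and -0.05. In HFD-STZ against HFD at 24 weeks they differed by -0.76 (exact permutation p = 0.0087) and -0.36. In HFD-DR against SD they differed by -0.66 (exact permutation p = 0.011) and -0.28. The part of either marker list in the Hpgds differences was not tested. Hpgds had r = 0.75 and rho = 0.71 with the macrophage marker mean and r = 0.34 with the mast cell one, and its nearest genes were Blnk (r = 0.84), Hmha1 (r = 0.8) and Pirb (r = 0.79).

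Ptgds (GRCm38 chr2:25466709-25470046, minus strand, 7 exon blocks), the lipocalin-type prostaglandin D synthase, had group means between 6.7 and 7.11 in 7 of the 8 groups and 1 sample far from the rest. In HFD-STZ at 24 weeks, replicate 7 was at 12.14 and the other 7 samples at 6.97 ± 0.36 (SD, n = 7), between 6.22 and 7.33. That is the library with neuron transcripts, and the difference from SD without it was 0.12 ± 0.17 (adjusted p = 0.9) against 0.76 with it. At 16 weeks the SD samples ran from 6.37 to 7.09 with a median of 6.62 and HFD samples from 6.76 through 7.1 to 7.39. The groups overlapped, with 4 of 7 HFD samples above every SD sample, and the difference was 0.40 ± 0.17 (adjusted p = 0.569, exact permutation p = 0.0391). The 3 genes most like Ptgds over all samples were Pcp4 (r = 0.94), Kcnab2 (r = 0.92) and Ndrg4 (r = 0.91), and without the library Pcp4 (r = 0.71), Edn3 (r = 0.65) and Dleu7 (r = 0.65).

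Of the leukotriene branch, Alox5 (GRCm38 chr6:116410077-116461178, minus strand, 12 exon blocks) had no unadjusted p under 0.05, with group means from 7.68 to 8.24 and differences from -0.44 to 0.55. Alox5ap (GRCm38 chr5:149264767-149288153, plus strand, 8 exon blocks), which brings arachidonic acid to Alox5, had 4. At 16 weeks HFD samples ran from 7.31 through 7.76 to 8.2 and SD samples were 6.44, 6.9, 7.25, 7.42 and 7.84 in order of size. The groups overlapped, with 2 of 7 HFD samples above every SD sample, and the difference was 0.57 ± 0.22 (adjusted p = 0.553, exact permutation p = 0.0341), 0.07 with the adipocyte covariate. HFD-DR was below HFD by a difference of -0.54 ± 0.25 (adjusted p = 0.736, exact permutation p = 0.0676), HFD-STZ-DR below SD at 24 weeks by -0.36 ± 0.15 (adjusted p = 0.492, exact permutation p = 0.0386), and SD at 24 weeks above SD at 16 weeks by 0.54 ± 0.22 (adjusted p = 0.459, exact permutation p = 0.042). With the adipocyte covariate these were -0.30 (adjusted p = 0.803), -0.20 (adjusted p = 1) and 0.13 (adjusted p = 1).

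Alox5 and Alox5ap varied with macrophage markers within groups, and Alox5 also with fibroblast markers (r = 0.82). Alox5 had r = 0.85 and rho = 0.85 and Alox5ap r = 0.87 and rho = 0.85 with the mean of the 8 macrophage markers (permutation p = 1e-05 for each, the smallest that the resamples give), and r = 0.84 and 0.83 without the 2 farthest samples, 0.82 and 0.84 with runs taken off. The nearest genes of Alox5ap were Spi1 (r = 0.9), Cybb (r = 0.9) and Cd53 (r = 0.89), and those of Alox5 were Csf1r, Adgrd1 and F13a1 (r = 0.88 each). Spi1 encodes the myeloid transcription factor PU.1 and Csf1r the receptor for macrophage growth factor. Both values of a point come from 1 library, so its cell makeup and scaling enter both.

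Lta4h (GRCm38 chr10:93453411-93484875, plus strand, 19 exon blocks), leukotriene A4 hydrolase, was the most even member: all 53 samples lay between 11.54 and 12.13, no unadjusted limma p was under 0.05 and the differences ran from -0.14 to 0.08. Its smallest exact permutation p was 0.0238, for a difference of -0.14 in HFD-STZ against SD at 16 weeks. It was the only member with a positive correlation with the Schwann cell marker mean (r = 0.53, rho = 0.48; permutation p 0.00015 and 0.00058), with r = 0.45 without the 2 farthest samples and 0.51 with runs taken off. Its nearest genes were Snx6 (r = 0.73), Nipsnap3b (r = 0.72) and Gss (r = 0.71).

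Alox15 (GRCm38 chr11:70344152-70352031, minus strand, 14 exon blocks), 12/15-lipoxygenase, was close to the limit on low values, at a median of 3.24, and passed it in 6 comparisons. HFD samples at 24 weeks ran from 2.47 through 4.11 to 5.5, HFD-STZ samples from 2.29 through 3.18 to 4.27 and HFD samples at 16 weeks from 2.22 through 3.08 to 4.54. The groups overlapped: 2 of 8 HFD-STZ samples lay below every HFD sample at 24 weeks, and 2 of 7 HFD samples at 24 weeks lay above every one at 16 weeks. The differences, given as a description, were -0.89 ± 0.41 for HFD-STZ against HFD and 0.93 ± 0.43 for HFD at 24 against 16 weeks. Alox15 met the filter in both only through HFD at 24 weeks, where its mean was 4.13, while the means of HFD-STZ at 24 weeks (3.24) and HFD at 16 weeks (3.2) were under the filter. Alox15 had r = 0.58 and rho = 0.53 with the platelet and r = 0.53 and rho = 0.41 with the neutrophil marker mean. With the macrophage marker mean it had r = 0.48 and rho = 0.52. Its nearest genes were Ifitm6 (r = 0.63), Padi4 (r = 0.63) and Retnlg (r = 0.62).

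**Figure D3:**
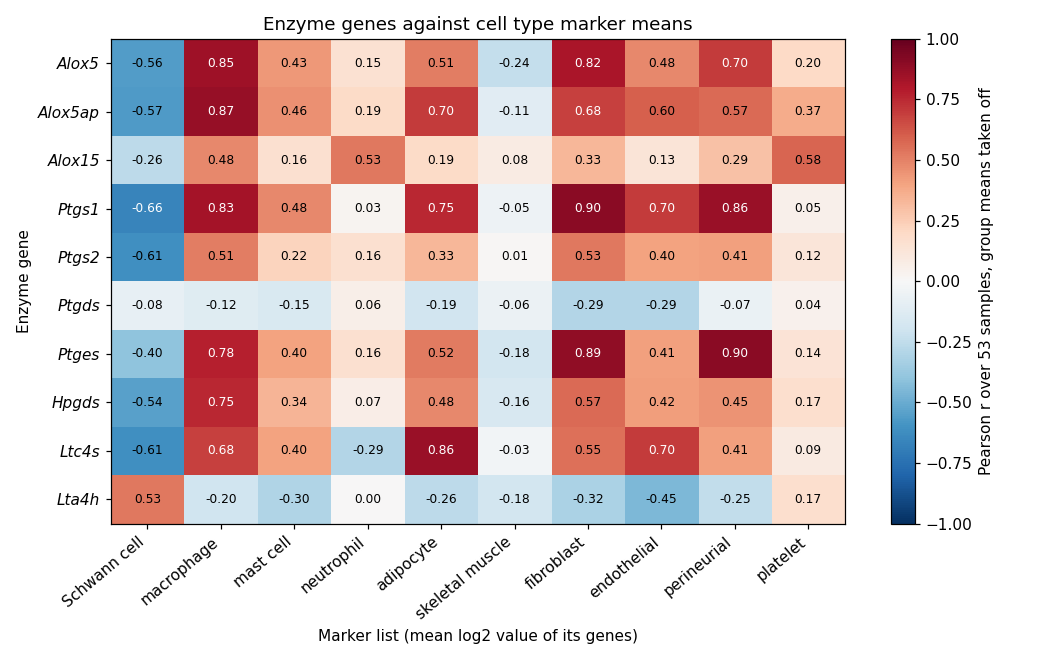
Pearson r over 53 samples, with group means taken off, between each enzyme gene (rows) and the mean log2 value of each marker list (columns). Ltc4s had its highest r with adipocyte markers (0.86), and Alox5 and Alox5ap with macrophage markers (0.85 and 0.87). Ptgs1 and Ptges had theirs with fibroblast and perineurial markers in that order (0.9 each). For Ptgds r lay between -0.29 and 0.06, with the HFD-STZ sample at 12.14 included, and rho between -0.14 and 0.24.

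Set against the background, the count of members at an unadjusted p under 0.05 was 4 of 9 tested in HFD against SD at 16 weeks, where 8.55% of all genes had one, and 4 of 9 in SD at 24 against 16 weeks, against 10.5%. In HFD-DR against HFD it was 3 of 10 against 6.72%, and in HFD-STZ-DR against SD 3 of 9 against 9.16%. There were 2 of 9 in HFD-STZ-DR against HFD-STZ (6.48%; without HFD-STZ replicate 7, 3 members and 8.28% of all genes), 2 of 9 in HFD-STZ-DR against HFD-DR (3.58%) and 2 of 10 in HFD at 24 against 16 weeks (5.9%). A single member had one in HFD-STZ against SD at 16 weeks (8.41%), HFD-STZ against HFD at 16 weeks (4.88%), HFD against SD at 24 weeks (9.05%), HFD-STZ against SD at 24 weeks (5.99%), HFD-STZ against HFD at 24 weeks (5.59%; 0 without replicate 7) and HFD-STZ at 24 against 16 weeks (12.5%), and none had one in HFD-DR against SD (5.14%). In the interactions, 1 member had one in the age change of HFD against SD (1.67%), 0 in that of HFD-STZ against SD (4.68%) and 1 in the reversal effect of HFD-STZ against HFD (1.71%). The single member in HFD-STZ against HFD at 24 weeks and 1 of the 2 in HFD by age is Alox15, which the filter let in through the group where it was high. With the adipocyte mean as a covariate the count was lower in these comparisons: 1 in place of 4 in HFD against SD at 16 weeks and in SD by age, 2 in place of 3 in HFD-DR against HFD, 1 in place of 2 in HFD-STZ-DR against HFD-STZ and in HFD by age, and 0 in place of 3 in HFD-STZ-DR against SD. It was also 0 in place of 2 in HFD-STZ-DR against HFD-DR. It was higher in others: 3 in place of 1 in HFD-STZ against HFD at 24 weeks, 2 in place of 1 in HFD-STZ against SD at 24 weeks, 1 in place of 0 in HFD-DR against SD, 2 in place of 0 in the age change of HFD-STZ against SD and 2 in place of 1 in the reversal interaction. With this covariate 1576 of all genes had one in HFD against SD at 16 weeks, against 1536 without it. For the other comparisons with this covariate the count over all genes is not reported here. Whether the members moved apart from all genes there was not tested. Single libraries moved the member counts as well. Over the fits without 1 library, the count in HFD against SD at 16 weeks ran from 2 to 5, with 2 without SD replicate 1. In that last fit 1520 of all genes had one. In SD by age the member count also ran from 2 to 5. It was 2 without any one of SD replicates 5, 6 and 7 at 24 weeks or 1 and 2 at 16 weeks. In HFD-STZ against SD at 16 weeks it ran from 1 to 4, with 2 without SD replicate 3 and 4 without SD replicate 5. In these 2 fits 1558 and 2172 of all genes had one, against 1504 with all libraries. In HFD-STZ-DR against SD the member count ran from 2 to 5, with 5 without SD replicate 2. It ran from 2 to 4 in HFD-DR against HFD and from 0 to 2 in HFD-DR against SD. The counts of 1 or 2 in the other comparisons ran from 0 to 3. In HFD-STZ against HFD at 16 weeks the count was 3 without HFD replicate 5, where 1040 of all genes had one. It was 0 without HFD-STZ replicate 2, where 599 of all genes had one, against 889 with all libraries. The counts over all genes beside the remaining leave-one-out counts are not reported here. Several of these comparisons share a control group, and the members are measured in the same samples.

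**Figure D4:**
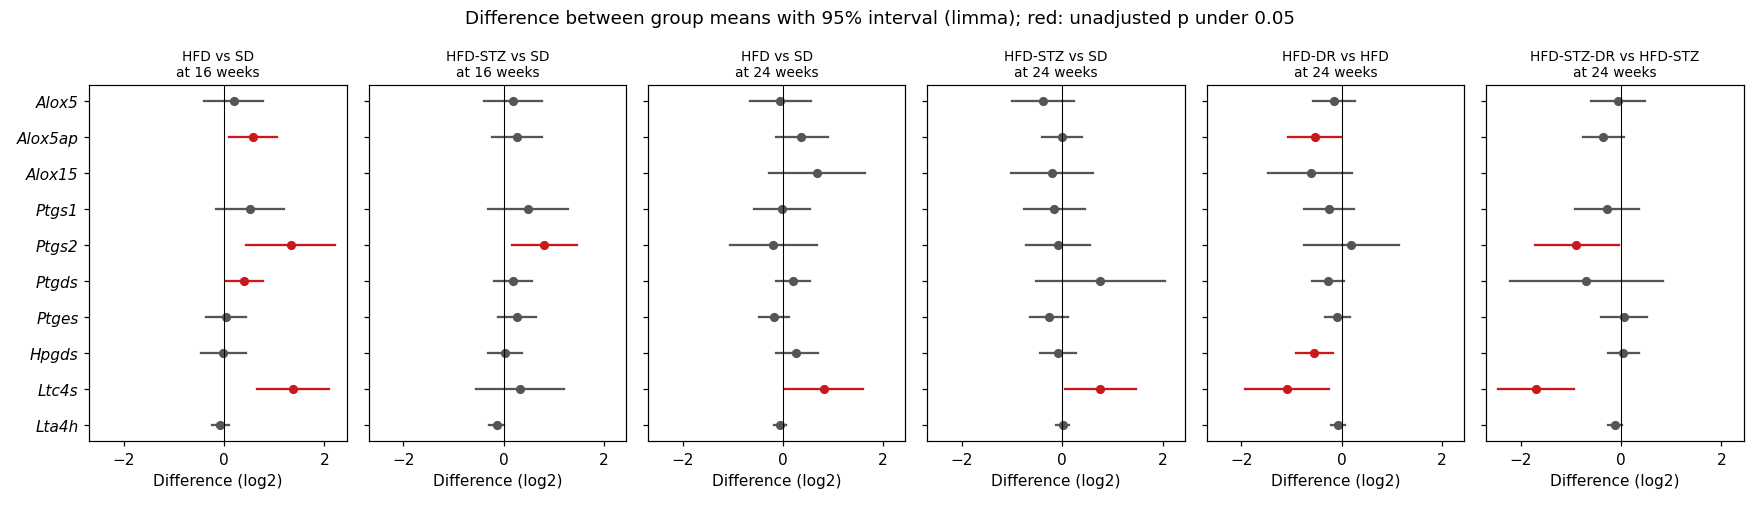
Difference between group means (log2, points) with the 95% interval from limma (lines) for each enzyme gene in 6 comparisons, with an unadjusted p under 0.05 in red. The Ltc4s interval lies below 0 in both reversal comparisons, and no difference passed the adjusted threshold.

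The other genes of the pathway were described from lists of 18 further synthesis genes, 8 breakdown and transport genes and 15 receptors. None of these passed the adjusted threshold in any comparison, the smallest adjusted p being 0.0902 for Ptger2 in HFD-STZ-DR against HFD-STZ. In that comparison Ptger2, a receptor for prostaglandin E2, was different by -1.24 ± 0.25, Ptger3, another one, by -1.37 ± 0.41 (adjusted p = 0.304) and Mgst2, which can also make leukotriene C4, by -0.63 ± 0.25 (adjusted p = 0.649). In HFD-DR against HFD, Hpgd, which inactivates prostaglandins, differed by -0.87 ± 0.24 (adjusted p = 0.468), Tbxas1, thromboxane synthase, by -0.55 ± 0.18 and Dpep2, a dipeptidase that acts on leukotriene D4, by -0.96 ± 0.32 (both adjusted p = 0.595). In HFD against SD at 24 weeks, Dpep2 had 0.85 ± 0.29 (adjusted p = 0.381), the prostaglandin D2 receptor Ptgdr 0.93 ± 0.33 (adjusted p = 0.384) and Hpgd 0.68 ± 0.25 (adjusted p = 0.428). In HFD-STZ against SD at 24 weeks, Abcc4, an exporter of prostaglandins, had -0.23 ± 0.09 (adjusted p = 0.801), Ptger2 0.47 ± 0.21 (adjusted p = 0.816) and Ptgir, the prostacyclin receptor, 0.60 ± 0.33 (adjusted p = 0.832). In HFD-DR against HFD, 3 of 15 tested synthesis genes, 2 of 8 breakdown genes and 2 of 11 receptors were lower at an unadjusted p under 0.05 and none higher, beside 6.72% of all genes in either direction, and the list medians were -0.12, -0.18 and -0.30 beside 0 for all genes. In HFD-STZ-DR against HFD-STZ, 1 of 15, 0 of 8 and 3 of 10 were lower and none higher, beside 6.48% of all genes, with medians of -0.14, -0.10 and -0.42 beside 0.01. In HFD-DR against SD, none of the 3 lists held a gene at that level, beside 5.14% of all genes.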

How the data were processed

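RNA-seq of 53 sciatic nerve samples was analysed, in 8 groups of diet, STZ, age and dietary reversal taken from the labels. The authors named HISAT2, featureCounts, DESeq2 and the mm10 build, with no versions, in their processing notes. The labels name Trizol and a TruSeq mRNA kit and the methods an RNeasy kit with a SMART-Seq v4 non-stranded polyA library and 125-base paired reads, which differ, and the normalization between samples is not given in the sources used here. The deposited files hold 1 log2 value per gene and no counts, so the depth per sample is unknown and no interval of counting error is given. Samples in a group are separate samples by the labels, and p-values measure the spread between them.

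Here limma 3.58.1 (R 4.3.3, empirical Bayes with a trend) was fitted to the 2 groups of each comparison, on genes whose mean in those samples reached 3.32 (log2 of 10), without the 25 genes that had any value above 22, p-values being adjusted by Benjamini-Hochberg across every gene in the fit. It was tested on simulated data. The study's own fit used DESeq2 on counts, which are not used here. Single genes had a two-sided exact permutation test over the samples. Runs of library numbers are 8 series of consecutive numbers in the sample titles, whose meaning is not given. Correlations had 100000 permutations within groups and are adjusted over 100. The GENCODE M21 annotation (GRCm38) gave positions. Members named in a comparison are those with an unadjusted limma p under 0.05. Pathway genes named are the 3 with the smallest unadjusted p in each of 4 comparisons, as none passed. The members, lists and tests were chosen with earlier results of these data known. Alternatives tried were no filter, a filter in each sample, 1 fit for all groups with and without run, robust and untrended variance, median centring, keeping genes above 22, the adipocyte mean as covariate and leaving out each replicate. Some genes that these rules name are not reported here.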

Additional observations from a re-analysis of the deposited data

Results flagged for a closer look

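Of 80 groups of 1 gene in 1 condition, 3 held a sample far from the others by Dixon's criterion, and chance alone picks about 1 in 20 groups. Ptgds in HFD-STZ at 24 weeks had replicate 7 at 12.14, against 7.33 for the next sample, in the library with sensory neuron transcripts. Ptgds in HFD at 24 weeks had replicate 1 at 6.47, against 7.02 for the next. Ptgs2 in SD at 16 weeks had replicate 2 at 3.18, against 3.63 for the next.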

How the results depend on the processing

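No paired analysis was possible because replicates were numbered here in accession order, so that their numbers pair no samples. The run of library numbers, taken from the titles, could be added to the fit of all groups, and no member was called with it. The count of members called was 0 in each comparison except 1 in HFD against SD at 24 weeks with the adipocyte mean as covariate (Ltc4s, adjusted p = 0.0461) and 1 in HFD-STZ-DR against HFD-STZ with all groups in 1 fit (Ltc4s, adjusted p = 0.0274, and 0.0525 with the run as a block), where it ran from 0 to 1 when a replicate was left out (1 without HFD-STZ replicate 6 or 7). Without HFD-STZ replicate 7, 117 of all genes passed there, against 15 with it. The Ltc4s difference in that comparison ran from -1.89 to -1.55 over the fits without 1 replicate. Over the other alternatives it ran from -1.69 to -0.60, the last with the adipocyte covariate. As no difference passed the threshold at first, none could be lost, but sizes moved: with the adipocyte covariate Alox5ap in HFD against SD at 16 weeks went from 0.57 to 0.07, Ptgs1 in SD by age from 0.80 to 0.10 and Ltc4s in HFD-STZ by age from 1.28 to 0.31. None of the 28 differences with an unadjusted p under 0.05 changed sign under any alternative tried. The other differences were not followed over all alternatives, and some of them changed sign without HFD-STZ replicate 7. Among these, Ptgds in HFD-STZ against HFD at 24 weeks went from 0.57 to -0.08. The similar genes shared 2 or 3 of 3 in 19 of 30 alternatives, among which leaving out the most deviating library was chosen after the data were seen. The depth behind each value is unknown.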
